A study of Mus musculus with 20 samples.

Results

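The immunoglobulin gene segments are the genes that encode antibody heavy and light chains. They were taken as every gene that GENCODE release M21 (mouse build mm10, GRCm38) types as an immunoglobulin constant, variable, diversity or joining gene and that had a value above 0 in any library. This rule found 223 genes of 42890 in the whole series, namely 13 constant genes and 210 variable (V) genes, out of 264 annotated genes of the 4 types. Diversity and joining genes were not analysed here. The heavy chain locus (Igh, chromosome 12) gave 8 constant and 107 V genes, the kappa locus (Igk, chromosome 6) 1 and 100, and the lambda locus (Igl, chromosome 16) 4 and 3.

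The libraries came from abdominal aortas of C57BL/6 mice, in a study whose title asks whether loss of Rab22a, a small GTPase of endosomal traffic, prevents hypertension caused by angiotensin II (AngII). Wild type mice and Rab22a knockout mice each received saline or AngII for 14 days, the hormone at 500 ng/kg/min, which makes 4 groups of 5 mice. Total RNA depleted of ribosomal RNA was sequenced, and the values were read as FPKM, a unit inferred from the values themselves, which corrects reads for the length of a transcript and for the size of its library. Nothing says whether the vessels were cleaned of surrounding tissue, and each library holds a mixture of cells, so fewer B lineage cells and less RNA per cell cannot be told apart in any value below.

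A B cell builds each antibody chain by joining 1 of many V genes to shorter segments, and the cells of a clone share that V gene. Unrelated clones can use the same V gene, so V gene levels alone do not identify or count clones. The constant gene downstream sets the isotype: naive B cells make IgM and IgD, and class switching replaces them with IgG, IgA or IgE. Heavy chain transcripts end either in a secreted tail, the form that plasma cells make in large amounts, or in a membrane anchor, the form of the B cell receptor, and mouse antibodies carry kappa light chains far more often than lambda.

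The V genes with the highest mean FPKM are shown here because the account of V use turns on them, and because close relatives among them can share reads. Each line gives the last 120 bases of the coding sequence in GENCODE M21, 5′ to 3′, with the codon of the last in-frame cysteine in capitals. That cysteine opens the region in which V, diversity and joining segments meet.
Ighv1-80: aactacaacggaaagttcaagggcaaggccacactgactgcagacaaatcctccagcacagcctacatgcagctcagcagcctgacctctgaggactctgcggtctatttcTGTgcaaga
Ighv1-72: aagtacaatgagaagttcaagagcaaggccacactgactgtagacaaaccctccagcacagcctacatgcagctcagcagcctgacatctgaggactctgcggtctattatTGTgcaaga
Ighv8-8: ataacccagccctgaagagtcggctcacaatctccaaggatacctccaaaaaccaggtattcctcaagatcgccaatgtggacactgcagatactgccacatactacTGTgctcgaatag
Ighv1-9: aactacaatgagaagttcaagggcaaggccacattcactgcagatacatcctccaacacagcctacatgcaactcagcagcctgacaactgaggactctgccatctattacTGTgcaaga
Ighv1-39: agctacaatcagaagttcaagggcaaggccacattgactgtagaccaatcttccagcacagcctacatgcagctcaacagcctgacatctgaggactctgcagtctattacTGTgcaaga
Igkv1-117: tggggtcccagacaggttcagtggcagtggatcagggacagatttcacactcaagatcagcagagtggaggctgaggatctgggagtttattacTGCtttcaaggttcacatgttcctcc
Igkv6-15: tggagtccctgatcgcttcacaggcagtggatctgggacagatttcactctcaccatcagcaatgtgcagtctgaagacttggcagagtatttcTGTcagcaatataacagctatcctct
Igkv10-96: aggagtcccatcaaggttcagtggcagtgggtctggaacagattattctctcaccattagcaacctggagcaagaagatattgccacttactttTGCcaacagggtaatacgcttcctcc
Igkv4-59: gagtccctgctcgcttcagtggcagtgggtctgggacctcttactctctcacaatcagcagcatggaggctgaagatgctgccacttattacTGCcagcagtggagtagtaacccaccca
Igkv1-110: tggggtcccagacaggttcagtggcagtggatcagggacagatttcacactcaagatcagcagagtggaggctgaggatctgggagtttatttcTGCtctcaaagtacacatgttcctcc
Iglv3: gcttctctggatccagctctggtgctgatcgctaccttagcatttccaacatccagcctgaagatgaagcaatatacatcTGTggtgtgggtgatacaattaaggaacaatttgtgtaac

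In mm10 these stretches lie at chr12:115912344-115912463 (Ighv1-80), chr12:115757984-115758103 (Ighv1-72), chr12:115294062-115294181 (Ighv8-8), chr12:114583569-114583688 (Ighv1-9), chr12:114914599-114914718 (Ighv1-39), chr6:68121708-68121827 (Igkv1-117), chr6:70406469-70406588 (Igkv6-15), chr6:68631963-68632082 (Igkv10-96), chr6:69438218-69438337 (Igkv4-59), chr6:68271148-68271267 (Igkv1-110) and chr16:19241207-19241326 (Iglv3). All are on the minus strand except Igkv1-117 and Igkv1-110, which are on the plus strand. Over their whole coding sequences Igkv1-117 and Igkv1-110 were 97.2% identical in 359 aligned positions, so reads could be split between them and their separate levels are uncertain. The other 9 pairs among the 5 kappa genes were 57.3% to 64.4% identical. The 4 heavy chain genes of the Ighv1 family were 82.6% to 87.2% identical to each other and 52.8% to 57.3% identical to Ighv8-8.

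The alternative ends of the heavy chain are shown for Ighm and Igha, because the balance between them separates the membrane receptor from secreted antibody. The 30 bases in lower case are shared, and the capitals are the coding bases of the secreted or the membrane form alone. Each membrane end lies further downstream, in an uninterrupted stretch for Igha and joined from separate stretches for Ighm.
Ighm secreted: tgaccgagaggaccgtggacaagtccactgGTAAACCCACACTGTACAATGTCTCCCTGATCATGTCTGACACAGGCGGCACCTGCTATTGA
Ighm membrane: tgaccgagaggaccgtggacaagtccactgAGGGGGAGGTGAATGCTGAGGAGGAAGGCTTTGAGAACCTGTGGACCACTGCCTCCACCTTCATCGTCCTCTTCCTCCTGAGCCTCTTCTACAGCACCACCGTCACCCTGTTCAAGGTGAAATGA
Igha secreted: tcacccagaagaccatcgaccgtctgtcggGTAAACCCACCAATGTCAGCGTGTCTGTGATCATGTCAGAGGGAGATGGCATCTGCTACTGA
Igha membrane: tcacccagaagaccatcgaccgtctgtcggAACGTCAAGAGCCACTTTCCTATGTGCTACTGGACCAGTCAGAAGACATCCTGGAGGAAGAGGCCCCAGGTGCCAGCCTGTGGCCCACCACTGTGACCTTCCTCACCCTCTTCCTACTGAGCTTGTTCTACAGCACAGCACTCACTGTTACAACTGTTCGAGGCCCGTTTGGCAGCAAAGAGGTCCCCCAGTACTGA

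In mm10, on the minus strand, the capitals lie within chr12:113420867-113420928 (Ighm, secreted), chr12:113418826-113419068 (Ighm, membrane), chr12:113258768-113258829 (Igha, secreted) and chr12:113256201-113256397 (Igha, membrane).

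The libraries were examined before the comparisons. The values implied 68734308 to 77395586 reads per library, and the immunoglobulin genes held at least 2685 of them in each. The protein-coding Rab22a transcript ENSMUST00000029024 lay between 1.87 and 8.62 FPKM in wild type libraries and at most at 0.00563 in knockout libraries, while a transcript annotated for nonsense-mediated decay (ENSMUST00000142820) reached 7.43 to 11.1 FPKM in knockout libraries, so the genotype labels fitted the transcripts. The aortic label fitted smooth muscle actin, Acta2, at 522 to 3128 FPKM, and smooth muscle myosin, Myh11, at 126 to 401 FPKM. A set of 5 knockout libraries stood apart from all others in B cell genes: saline replicates 2, 4 and 5 and AngII replicates 1 and 2. Cd79a, a signalling chain of the B cell receptor, was 1.15 to 4.31 FPKM in these 5 and 18.4 to 120 FPKM in the other 15, which included all 10 wild type libraries. Knockout saline replicates 1 and 3 stood at the other end, with the highest summed immunoglobulin levels.

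Igkc, the kappa constant gene (chr6:70726435-70726966), was the most abundant immunoglobulin gene, with a mean of 951 FPKM over the 20 libraries. Under saline it stood at 897, 539, 601, 1265 and 369 FPKM in wild type replicates 1 to 5. In knockout mice under saline the values were 5212, 29.6, 2841, 46.0 and 6.60 FPKM. Wild type AngII libraries held 922, 1218, 712, 707 and 1907 FPKM, and knockout AngII libraries 0.275, 13.6, 357, 1126 and 241 FPKM. Wild type libraries of both treatments thus covered a narrow range, whereas knockout saline libraries lay either above or below every wild type saline library, and the AngII groups overlapped only through knockout replicate 4. Saline means were 734 ± 353 FPKM (SD, n = 5) for wild type and 1627 ± 2345 FPKM for knockout libraries. Under AngII they were 1093 ± 500.3 and 348 ± 461 FPKM, respectively.

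Igha, the IgA constant gene (chr12:113254830-113260236), had the next highest mean, at 387 FPKM. IgA is the main antibody of mucosal plasma cells. It stood at 872, 197, 277, 544 and 180 FPKM in wild type saline libraries and at 426, 559, 468, 171 and 969 FPKM in wild type AngII libraries. In knockout libraries it stood at 618, 19.7, 1598, 0.460 and 6.18 FPKM under saline and at 0.286, 11.1, 121, 562 and 138 FPKM under AngII. The same 5 knockout libraries were low, and the remaining 5 lay between 121 and 1598 FPKM.

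The IgG constant genes followed. Ighg2b averaged 338 FPKM, Ighg2c 325, Ighg3 101 and Ighg1 27.3. In Ighg2b and Ighg2c some wild type libraries departed strongly from the rest of their group, whereas Ighg3 spread from 14.3 to 249.9 FPKM over the 10 wild type libraries. Ighg2b was 0.899 and 0.967 FPKM in wild type saline replicates 1 and 5, against 73.5 to 264 FPKM in the other 3. Ighg2c was 3.33 and 1.54 FPKM in wild type AngII replicates 3 and 4, against 101 to 716 FPKM in the other 3. Knockout saline replicate 1 held the highest values of both, 3244 FPKM of Ighg2b and 3757 FPKM of Ighg2c. Secreted Ighg2b and Ighg2c have 85.6% identical coding sequences, the closest pair among the 4 IgG genes, and how reads were divided between them is not given.

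Ighm (chr12:113418558-113422730), the IgM constant gene, averaged 98.4 FPKM, and Ighd, the IgD constant gene downstream of it, 44.3 FPKM. Naive B cells make both from 1 primary transcript. The ratio of Ighm to Ighd fell into separate sets among the 15 libraries with Ighd of at least 10 FPKM. In 8 of them it lay between 2.77 and 9.08, and in 7 between 0.0453 and 0.297. The low set held 2 wild type saline libraries, 3 wild type AngII libraries and knockout saline replicates 1 and 3, so both genotypes and both treatments were in it. Knockout AngII replicates 3, 4 and 5 were all in the high set.

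Of the 16637 unannotated models in the files, 23 share 1 assembled locus that was low in the same 5 knockout libraries. Its summed level was 6.67 to 18.4 times Ighd in the 7 libraries with low Ighm and 3.11 to 11.3 times Ighd in the other 8, so the sets overlapped. A group of 3 of these models, picked because their values split, summed to 3.47 to 5.41 and 0.868 to 1.94 times Ighd, which is a description and supports nothing. The files give no gene or coordinates for these models, and their part in the Ighm values was not tested. Levels of Ighm and shares of IgM are therefore given as the annotated gene shows them.

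**Figure D1:**
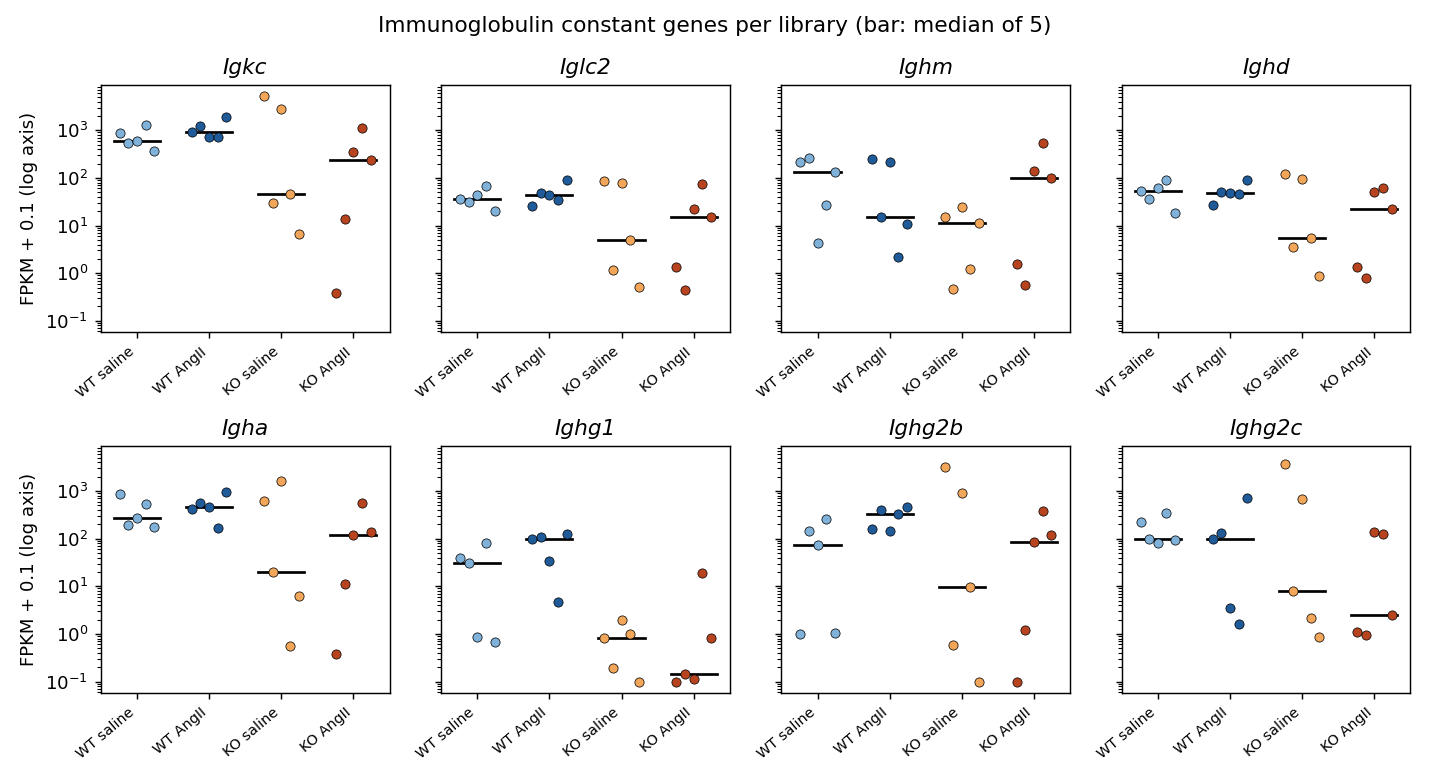
FPKM plus 0.1, on a log axis, of 8 constant genes in each library, grouped by genotype and treatment, with 5 points a group in replicate order from left to right and a bar at the median. Knockout groups spread over more than the wild type range for Igkc, from 6.60 to 5212 FPKM under saline, while Ighm and the IgG genes also vary widely within wild type groups.

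Ighe and Iglc4 were close to absent. Ighe, the IgE constant gene, reached at most 1.66 FPKM and Iglc4 at most 0.499. Of the lambda constant genes Iglc2 averaged 36.0 FPKM, Iglc3 17.9 and Iglc1 11.3. Iglc2 and Iglc3 are 95.9% identical over 317 aligned positions, so their separate levels are uncertain. Iglc1 was 1 read in each of 7 libraries and reached 82.3 FPKM in knockout saline replicate 1.

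Whether AngII changed these genes was asked first in wild type mice. Of the 223 immunoglobulin genes 185 passed the filter of at least 1 FPKM in at least 5 libraries, and limma on log2(FPKM + 1) called 0 of them at an adjusted p under 0.05, as it did 0 of all 15010 genes (0%). None had an unadjusted p under 0.05, against 3.05% of all genes (1.47% higher and 1.58% lower), while limma-voom on recovered reads also called 0. The fitted difference was above 0 for 111 and below 0 for 74, with a median of 0.12 against 0.02 over all genes. This direction rested on single libraries: the median was -0.13 without wild type AngII replicate 5, with 75 above and 110 below 0, and -0.01 without saline replicate 5, and up to 0.31 without saline replicate 4. The log2 differences were 0.60 ± 1.73 (SE) for Igkc, -1.04 ± 1.65 for Ighm and 0.40 ± 1.68 for Igha (limma, adjusted p = 1.00 for each).

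In knockout mice AngII also gave 0 calls of 185, against 0% of all genes, and 0 with limma-voom. Of the members 1 had an unadjusted p under 0.05, Igkv4-80 at -1.85 ± 0.83 (SE), against 3.96% of all genes (2.32% higher and 1.65% lower). The median difference was -0.42 over the members and -0.06 over all genes, but 0.29 over the members without knockout saline replicate 1 and 0.23 without replicate 3. It was -0.04 without knockout AngII replicate 1 and -0.07 without AngII replicate 2, and -0.96 to -0.46 without any other single library. Igkc differed by -1.30 ± 1.73, Ighm by 2.19 ± 1.65 and Igha by -0.10 ± 1.68 on the log2 scale (SE). The direction for Igkc and Igha rested on single libraries. Without knockout saline replicates 1 and 3 they were 1.68 and 2.84, and without knockout AngII replicate 1 they were 0.15 and 1.16. Igha was also above 0 without knockout saline replicate 1 (0.83), saline replicate 3 (1.17) or AngII replicate 2 (0.35), and after quantile normalization (0.03). Leaving out the 5 libraries with low Cd79a, which leaves 2 saline and 3 AngII libraries, gave 4 member calls (2.16%), all lower under AngII, against 0.227% of all genes: Igkv4-90, Igkv6-15, Igkv9-123 and Igkv17-127. Since Cd79a, by which these libraries were left out, moves with the immunoglobulin genes, this describes the libraries and is no test of AngII.

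The genotypes were next compared in saline-treated mice, where no hormone was given. Limma called 0 of 185 members and 2 of 15010 genes (0.0133%), and limma-voom called 0 members. At an unadjusted p under 0.05, 13 members (7.03%) were lower and 0 higher, against 5.48% and 1.89% of all genes and 7.37% in either direction. The median was -0.81 over the members and -0.04 over all genes, and 155 of 185 lay below 0. Single knockout libraries moved the count of 13, to 53 without saline replicate 1 and 40 without replicate 3. Without replicates 2, 4 and 5 it was 3, 3 and 2, and without wild type replicate 4 it was 5. The share of all genes in these other fits was not computed, so the counts stand without a background. The median was -1.73 with a pseudocount of 0.1 and -2.22 with limma-voom. The log2 difference was -1.94 ± 1.73 (SE) for Igkc, -3.27 ± 1.65 for Ighm and -2.89 ± 1.68 for Igha, with limma adjusted p of 0.866, 0.687 and 0.747. For Igkc this goes against the group means above, because 2 very high libraries set the mean of FPKM and 3 very low ones the mean of the logarithm.

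The direction under saline depended on which knockout libraries were kept. Without replicates 1 and 3, 8 members (4.32%) were called, all lower in knockout, against 0.326% of all genes, among them Ighv1-64 at -4.66 ± 0.71 (SE, limma adjusted p = 0.0157) and Ighv3-6 at -4.93 ± 0.92. Without the 5 libraries of low Cd79a, which leaves only replicates 1 and 3 of the group, 5 members (2.70%) were called, all higher in knockout, against 0.140% of all genes: Ighv1-39, Ighv2-9, Igkv4-90, Igkv6-15 and Igkv9-123. These sets were chosen by their B cell and immunoglobulin levels, so the calls describe the libraries and are no test of the genotype.

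Under AngII, knockout was compared with wild type to find what differs when the hormone is present. Limma called 1 of 185 members, Ighg1, against 275 of 15010 genes (1.83%). Ighg1, the IgG1 constant gene (chr12:113325240-113330523), measured 96.6, 108, 34.0, 4.49 and 127 FPKM in wild type replicates 1 to 5. In the knockout replicates it measured 0, 0.0429, 0.0124, 18.5 and 0.733 FPKM. The groups overlapped through wild type replicate 4 and knockout replicate 4. The means were 74.2 ± 52.4 and 3.86 ± 8.19 FPKM (SD, n = 5), and the difference on the log2(FPKM + 1) scale was -4.56 ± 1.13 (SE, limma adjusted p = 0.0474).

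This call was close to the threshold. It was lost without trend and robust moderation (limma adjusted p = 0.0510), in a fit of the AngII groups alone (0.0781), with no filter (0.0648), with limma-voom on recovered reads (0.191) and without the libraries of low Cd79a (0.231). Leaving out 1 AngII library at a time kept it only without wild type replicate 3 or knockout replicate 4, and the adjusted p was at most 0.140. Ighg1 was also below 5 FPKM in 7 of the 15 libraries with Cd79a of at least 10 FPKM, and in wild type AngII replicate 4 and knockout saline replicate 3 the membrane transcript held 99.2% and 98.0% of it, against 0% to 8.93% in the other 8 libraries where the gene reached 1 FPKM. The part of the assignment of reads to the secreted transcript in the call was not tested.

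Of the other members none passed under AngII. Igkc differed by -3.84 ± 1.73 (SE), Igha by -3.39 ± 1.68 and Ighm by -0.04 ± 1.65 (limma adjusted p = 0.263, 0.307 and 0.994), and the sign for Ighm was above 0 after quantile normalization (0.24) and after scaling in the manner of TMM (0.03). Members with an unadjusted p under 0.05 numbered 24 lower (13.0%) and 0 higher, against 12.1% and 5.14% of all genes (17.3% in either direction), a share near the background. The count was 48 in the fit of the AngII groups alone. With single libraries left out it was 7 and 8 without knockout replicates 1 and 2, and 9 and 13 without wild type replicates 5 and 2. It was 58 without knockout replicate 4 and 19 to 30 otherwise. For these other fits, too, the share of all genes was not computed. The median was -1.25 against -0.10 over all genes, and 179 of 185 lay below 0. With a pseudocount of 0.1 the median was -2.26 and with limma-voom -2.75. Without the libraries of low Cd79a the median was -0.43 and 0 members were called.

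The difference of the AngII effect between genotypes was tested as an interaction. It called 0 of 185 members and 0% of all genes, and 0 members had an unadjusted p under 0.05, against 3.34% of all genes (1.53% higher and 1.81% lower). Limma-voom also called 0. The interaction was -1.89 ± 2.45 (SE) for Igkc, 3.23 ± 2.34 for Ighm and -0.50 ± 2.37 for Igha (limma adjusted p = 0.995, 0.995 and 0.997). Without knockout saline replicates 1 and 3 it was 1.08 for Igkc and 2.45 for Igha.

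Isotypes were also compared as shares of the heavy chain constant FPKM within each library. IgA made up 41.1% ± 12.7 (SD, n = 5) of it in wild type saline, 38.1% ± 8.47 in wild type AngII, 29.1% ± 24.2 in knockout saline and 34.2% ± 26.4 in knockout AngII libraries. The IgG genes together made up 37.2% ± 13.6, 48.6% ± 16.6, 48.4% ± 33.6 and 31.1% ± 11.7, and IgM 16.02% ± 15.3, 8.82% ± 11.3, 13.3% ± 25.5 and 23.7% ± 12.4 in the same order. By group means IgA and IgG were the largest parts in all groups. The IgM and IgG shares varied most between mice in the knockout saline group, and the IgA share in the knockout AngII group. IgG reached 90.6% in knockout saline replicate 1 and IgA 77.8% in knockout AngII replicate 2.

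None of the 16 share comparisons passed after adjustment (exact permutation tests over mice, two-sided, smallest possible p 0.00794). Between genotypes under AngII the exact permutation test gave p = 0.0556 for IgM, adjusted 0.444, and p = 0.0952 for IgG, adjusted 0.508. The IgM share uses the Ighm values whose split against Ighd is given above, and the part of that split was not tested. In the knockout AngII group replicate 1 rests on 2685 immunoglobulin reads and replicate 2 on 3739.

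**Figure D2:**
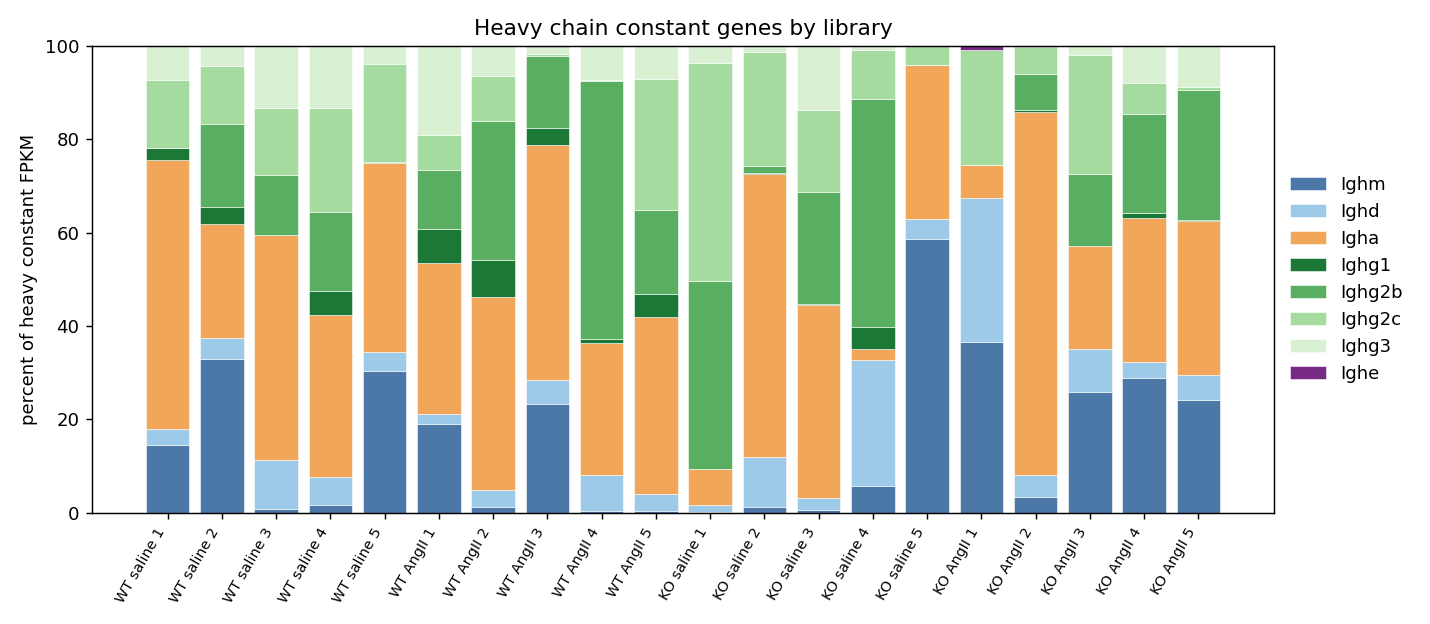
Share of each heavy chain constant gene in the summed FPKM of all 8, one bar per library, in percent. IgA and the IgG genes fill most bars, Ighm is between 0.186% and 58.6%, and knockout saline replicate 1 is 90.6% IgG.

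Kappa dominated the light chains. Igkc made up 90.6% ± 1.39 (SD, n = 5) of the light chain constant FPKM in wild type saline, 93.1% ± 0.999 in wild type AngII and 93.0% ± 4.28 in knockout saline libraries. In wild type mice the share was 89.4, 91.0, 89.1, 92.6 and 90.9% under saline and 93.2, 93.9, 91.3, 93.3 and 93.6% under AngII. The AngII libraries were higher apart from replicate 3, which lay below saline replicate 4, and the exact permutation test gave p = 0.0159, adjusted 0.254. The share of Iglc1 in the light chains went the other way, 1.95% ± 1.89 under saline and 0.614% ± 1.37 under AngII. Iglc1 was 1 read in wild type AngII replicates 2 to 5 and in saline replicate 4, and 3.06% of the light chains in AngII replicate 1. The part of Iglc1 in the kappa difference was not tested.

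Knockout AngII libraries averaged 76.4% ± 35.1, set by replicate 1 at 13.7%. That library held 11 reads of Igkc but 1250 reads on Igkv genes, so Igkc was 0.00610 times the summed Igkv FPKM, against 0.332 to 0.673 in the other 19 libraries. Without it the difference from wild type AngII libraries was -0.93 percentage points.

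Membrane and secreted ends separated the isotypes. The membrane transcript made up a median of 98.9% of Ighd and 36.1% of Ighm FPKM, over the 18 libraries in which each gene reached 1 FPKM. It made up 0.811% of Igha, 4.10% of Ighg1, 1.61% of Ighg2b, 2.40% of Ighg2c and 0.975% of Ighg3. By these medians the switched isotypes were read mainly as the secreted form, but single libraries departed. For Ighg2c the membrane transcript made up 75.2% in wild type AngII replicate 3, 53.9% in wild type AngII replicate 4 and 68.8% in knockout AngII replicate 5. The wild type libraries here are those named above for low Ighg2c, and the Ighg1 exceptions are also given above. Ighm ranged from 11.8% to 99.02%, the latter in knockout AngII replicate 3, with 1.39 FPKM of the secreted and 140 FPKM of the membrane transcript.

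V genes were read broadly. Among the 15 libraries with Cd79a of at least 10 FPKM, 91 to 102 of 107 heavy chain V genes and 81 to 96 of 100 kappa V genes had a value above 0. In the 5 low libraries 34 to 70 and 43 to 67 did, on 344 to 1762 and 540 to 2610 reads. Values above 0 in all 20 libraries were found for 13 heavy chain and 22 kappa V genes. The filter kept 88 heavy chain, 85 kappa and 1 lambda V gene.

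Several of the V genes with the highest means were far above their other values in knockout saline replicate 1, the library with the highest summed V FPKM. A pick by mean FPKM favours genes that are high in that library, so this is partly built in and only describes it. Ighv1-80 (mean 132 FPKM) was 2093 FPKM in knockout saline replicate 1 and 0.0761 to 107 FPKM in the other 19 libraries. Igkv1-117 (mean 163 FPKM) was 1616 FPKM there and at most 316 FPKM elsewhere, and Igkv6-15 (mean 127 FPKM) was 1740 and at most 236 FPKM. Igkv10-96 (mean 89.3 FPKM) was not of this kind, with its highest value, 386 FPKM, in knockout saline replicate 3 and its highest share, 11.7%, in wild type AngII replicate 4. In share of their locus, Ighv1-80 took 17.5%, Ighv1-72 14.3%, Ighv8-8 10.7%, Ighv1-39 8.41% and Ighv1-9 7.31% in knockout saline replicate 1.

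**Figure D3:**
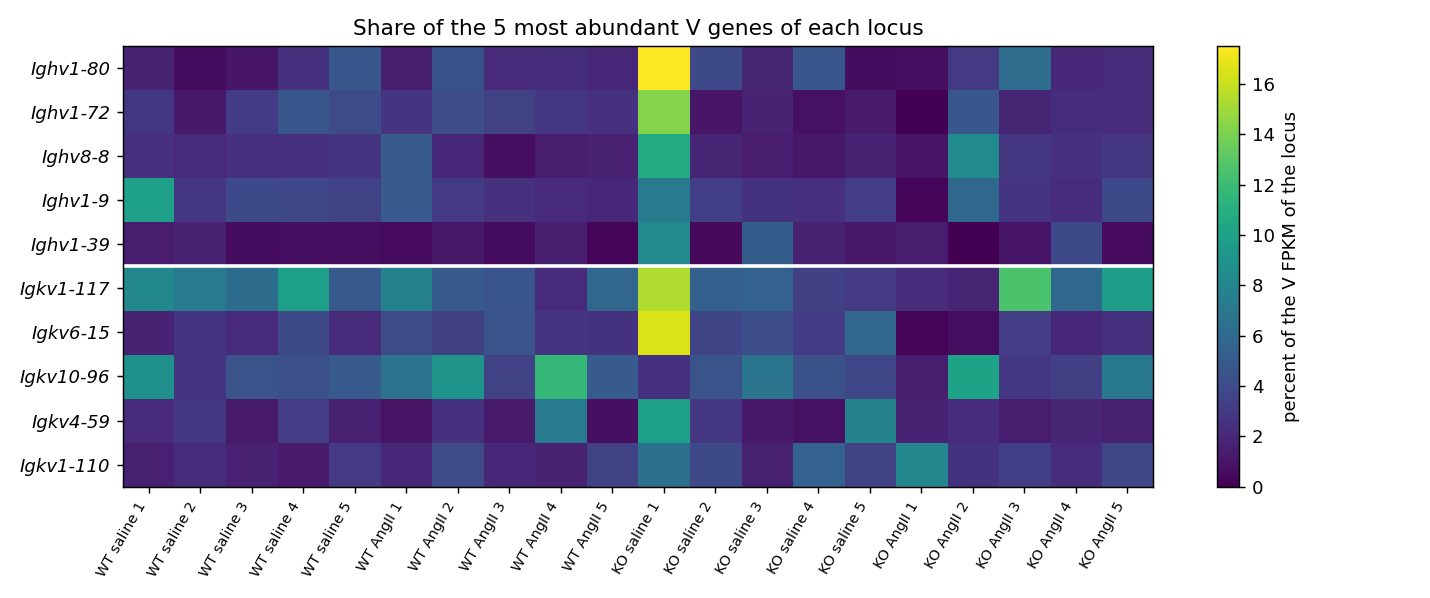
Share of the V FPKM of its locus, in percent, for the 5 heavy chain (top) and 5 kappa (bottom) V genes with the highest mean FPKM, in each library. Knockout saline replicate 1 holds the highest share for 4 of the 5 heavy chain genes and for 3 of the 5 kappa genes, with Ighv1-80 at 17.5% and Igkv6-15 at 16.6%. That library has the highest summed V FPKM and so weighs most in the means by which these genes were picked. Its lead is therefore partly built in by the pick.

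Evenness of V use was described by the effective number, the number of equally used V genes that would give the same Shannon entropy. For heavy chains it was 47.5 ± 5.75 (SD, n = 5) in wild type saline, 40.4 ± 6.48 in wild type AngII, 32.7 ± 9.45 in knockout saline and 30.7 ± 11.1 in knockout AngII libraries. For kappa it was 42.0 ± 2.69, 38.9 ± 6.27, 35.05 ± 8.22 and 35.8 ± 10.1. The knockout means include the 5 low libraries, whose V reads are few. In knockout saline replicate 1, the library with the most V reads, it was 23.2 for heavy and 25.9 for kappa chains, against 32.5 to 52.2 and 31.6 to 47.6 in the wild type libraries. No test was run on these descriptions.

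**Figure D4:**
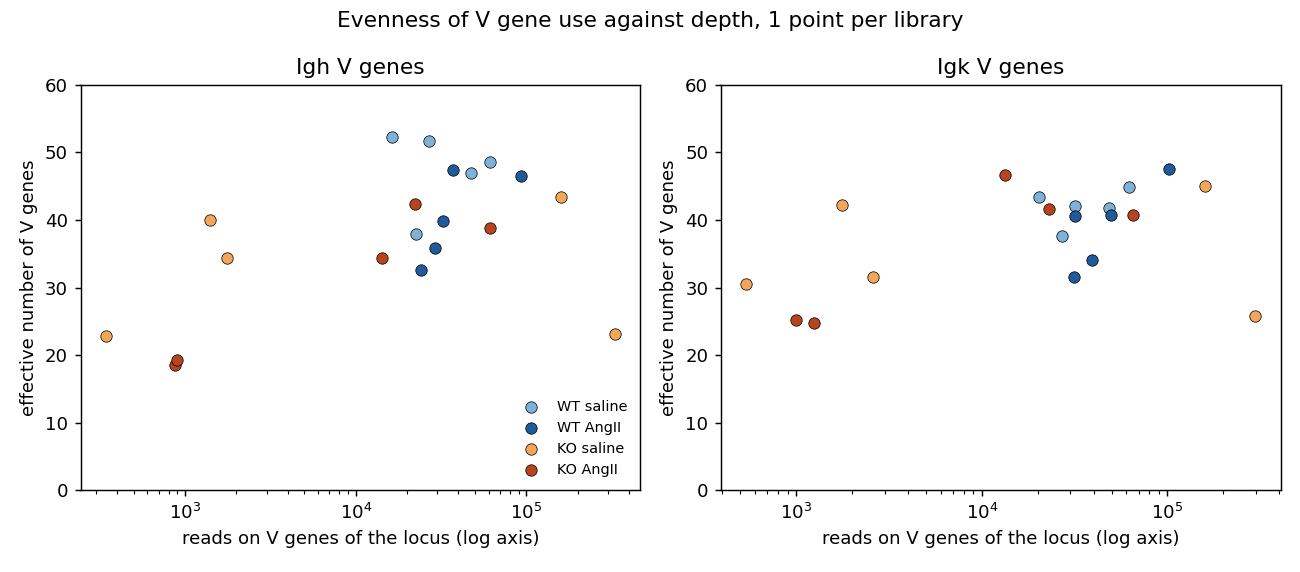
Effective number of V genes against the reads on V genes of the locus (log axis), heavy chain on the left and kappa on the right, 1 point per library. Knockout saline replicate 1 has the most reads and a low effective number, 23.2 and 25.9, while the other low values are in libraries with few reads.

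The leading V gene differed from mouse to mouse. Over the 20 libraries 16 different heavy chain and 15 different kappa V genes led their locus. Igkv1-117 led in 4 libraries, and no heavy chain gene led in more than 2. In single wild type libraries Ighv1-85 took 19.2% and Igkv4-72 14.7% (both AngII replicate 4) and Ighv14-2 took 18.2% (AngII replicate 3). In knockout AngII replicate 5, Ighv1-18 took 23.7% on 3327 reads. Knockout saline replicate 4 had Ighv2-3 at 21.6% and Igkv4-80 at 23.0%, on 372 and 574 reads.

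V use was also described by family and position, which the rule did not use. Ighv1, with 51 of 107 heavy chain V genes (47.7%), held a mean of 54.6% of heavy chain V FPKM over the 20 libraries, from 40.5% to 70.8%. Igkv4, with 26 of 100 kappa genes, held 19.4%, and Igkv6 and Igkv1, with 9 genes each, held 14.5% and 12.8%. Over the 15 libraries with Cd79a of at least 10 FPKM, the 33 kappa V genes farthest from Igkc (chr6:67555497-68863031) held 42.0% ± 6.97 (SD, n = 15) of kappa V FPKM and the 34 nearest 28.4% ± 5.99. The 62 kappa genes on the strand opposite to Igkc, which join by inversion, held 62.0% ± 7.43, the same share as of the genes. In the heavy chain locus the 35 farthest genes (chr12:115055223-116000461) held 38.8% ± 8.03 and the 36 nearest 29.4% ± 8.77.

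Lambda V use was almost all Iglv3 in the annotated values of the 15 libraries with Cd79a of at least 10 FPKM. Iglv3 held 97.5% to 99.8% of lambda V FPKM in these 15 libraries, at 5.50 to 65.9 FPKM. In the 5 low libraries its share was 0% to 54.9%, on only 3 to 46 lambda V reads. Iglv1 and Iglv2 stayed below 1 FPKM in every library, Iglv1 reaching 0.995, although Iglc1, the constant gene of the Iglv1 cluster, reached 82.3 FPKM. The part of read assignment in this was not tested.

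Genes of the cells that make and use antibody were read beside the members. B cell genes, 15 tested, had 0 called in all 5 comparisons, with 15 of 15 below 0 in knockout under saline (median -1.10) and under AngII (median -1.47). Over all genes these medians were -0.04 and -0.10, and the share of all genes below 0 was not computed. Plasma cell genes had 0 of 15 called. In knockout 9 of them lay above and 6 below 0 under saline (median 0.05), and 2 above and 13 below under AngII (median -0.43). Jchain, which links IgA and IgM into polymers, was 2.44 to 9.41 FPKM in the 5 low libraries and 16.03 to 249 FPKM in the other 15. The lowest of these 15 was knockout saline replicate 1, which also held the highest Mzb1, an endoplasmic reticulum protein of antibody-secreting cells, at 226 FPKM.

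Named genes of V gene recombination were low. Rag1, which cuts at V gene signals, was at most 0.442 FPKM, Dntt, which adds bases at the joints, at most 1.79, and Igll1 and Vpreb1, parts of the surrogate light chain of B cell precursors, at most 0.540 and 0.491. Of the 15 genes listed for recombination, switching and the surrogate light chain 10 were tested and 0 called in any comparison. Of the 11 antibody receptor and transport genes 9 were tested and 0 called. In knockout 9 of 9 lay below 0 under AngII (median -0.42, against -0.10 over all genes). Under saline 6 lay above and 3 below 0 (median 0.04).

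Markers of T cells and of lymph nodes moved with the immunoglobulin genes. The summed level of 12 T cell genes was 6.55 to 26.8 FPKM in the 5 low libraries and 49.3 to 656 FPKM in the other 15. That of 11 lymph node stroma and homing genes was 25.1 to 54.1 and 147 to 1259 FPKM. Glycam1, a ligand made by vessels through which lymphocytes enter lymph nodes, was 0 to 3.66 FPKM in the former and 41.6 to 407 FPKM in the latter. Ccl21a, a chemokine of lymphoid stroma, was 15.5 to 30.6 and 54.9 to 653 FPKM. Smooth muscle genes did not split in this way, at 2296 to 3760 and 1240 to 6446 FPKM, nor did white adipocyte genes, at 7138 to 9878 and 6264 to 12332 FPKM. None of these genes was called in any comparison, and the part of lymph node tissue in the immunoglobulin values was not tested.

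Across the 15 libraries with Cd79a of at least 10 FPKM, Igkc followed Cd79a on the log2 scale, with Pearson r = 0.847 and Spearman rho = 0.793 (permutation p = 3e-05 and 0.00064, adjusted over 8 relations 0.00024 and 0.00512). Without the 2 libraries farthest from the median r was 0.769, and within groups, as deviations from group means, 0.761. Igha followed Cd79a with r = 0.689 and rho = 0.629 (permutation p = 0.00508 and 0.0144, adjusted p = 0.0203 and 0.0383), and within groups with 0.477. Ighg2b followed Cd79a with r = 0.616 and rho = 0.704 (permutation p = 0.0145 and 0.00448, adjusted p = 0.0386 and 0.0179), and within groups with 0.741. Ighm ran the other way, with r = -0.559 and rho = -0.575 (permutation p = 0.0318 and 0.0277, adjusted p = 0.0635 and 0.0555), which did not pass. Igkc and Jchain had r = 0.178 and rho = 0.361 (permutation p = 0.525 and 0.187, adjusted p = 0.699 and 0.249), and r was 0.648 without the 2 libraries farthest from the median and 0.606 within groups. Igha and Jchain had r = 0.525 and rho = 0.468 (permutation test, adjusted p = 0.0738 and 0.130), and r was 0.853 within groups. Jchain had r = -0.044 with Ighm and -0.034 with Ighg2b, and no relation with Jchain passed. The 5 low libraries formed a separate cluster and were too few for a correlation.

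**Figure D5:**
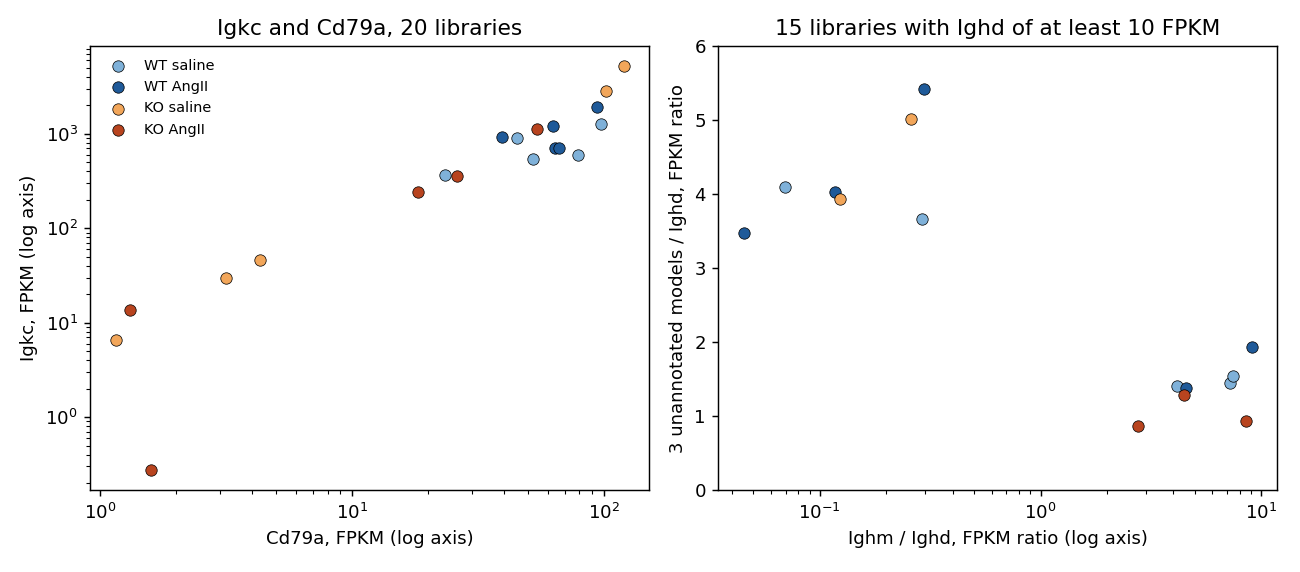
Left, Igkc against Cd79a in FPKM, both on log axes, in 20 libraries, with 5 knockout libraries at Cd79a of 1.15 to 4.31 FPKM apart from the others. Right, the summed FPKM of the 3 unannotated models picked for their split over Ighd against Ighm over Ighd (log axis) in the 15 libraries with Ighd of at least 10 FPKM, with 7 libraries at a low and 8 at a high Ighm ratio.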

How the data were processed

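The authors deposited 1 table per library of FPKM for 126719 transcript models. The unit was read from the values: multiplied by transcript length they fell on whole multiples of 1 step per library, 99.1% to 99.4% of low values within 0.1 read. Build mm10 and limma come from the submitters' processing notes, while for aligner, counter and strand setting nothing is given in the sources used here. FPKM of the 109913 transcripts matched to GENCODE M21 were summed per gene. The 16637 unannotated models, 10.6% to 12.9% of FPKM, were left out of gene values.

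Group means of all 20 libraries were estimated together with limma 3.58.1 in R 4.3.3 (trend, robust) on log2(FPKM + 1), for the 15010 genes that reached 1 FPKM in 5 or more libraries. Calls had a Benjamini-Hochberg adjusted p under 0.05. Shares were compared with exact permutation tests over mice, adjusted over 16. Python 3.11.15, numpy 2.4.6, pandas 2.3.3, scipy 1.17.1, biopython 1.88 and matplotlib 3.10.9 were used. The fit was tested on simulated data. Named genes were every constant gene, the 5 V genes per locus with the highest mean, the leading V gene of libraries and any called member. The members and lists were chosen with earlier results of these data known. Mice were separate and numbers were not taken to pair them. Alternatives were other scalings, filters, pseudocounts, moderation, limma-voom on recovered reads, a replicate block, recovered reads or 1 transcript per gene for shares, and leaving out libraries. Leaving out the libraries of low Cd79a, and leaving Ighm out of the share denominator, were chosen after seeing the data. The precision of V use is limited by V reads per library, which ran from 344 to 329997 for heavy chains.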

Additional observations from a re-analysis of the deposited data

Results flagged for a closer look

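Of 136 values of a group of 5 libraries, 29 had a highest or lowest library whose gap to its neighbour exceeded 0.71 of the group's range. That bound flags about 1 in 20 groups of independent, normally distributed values. Here FPKM values are skewed, genes move together and the V genes were picked by their means, so that rate does not apply. The flags only mark libraries to look at. Of the 29 flags, 10 were in knockout saline replicate 1 and 8 in knockout AngII replicate 4. In knockout saline replicate 1 they were Ighg2c (3757 FPKM, next 669), Ighg2b (3244, next 930.2), Ighv1-80 (2093, next 107), Ighv1-72 (1707, next 103), Ighv8-8 (1280, next 78.7), Ighv1-9 (873, next 152), Igkv1-117 (1616, next 316), Igkv6-15 (1740, next 236), Igkv4-59 (1037.5, next 67.4) and Igkv1-110 (681, next 88.8).

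In knockout AngII replicate 4 they were Ighg1 (18.5 FPKM, next 0.733), Ighg3 (143, next 36.9), Ighm (529, next 141), Igha (562, next 138), Iglc4 (0.214, next 0), Ighv1-72 (53.2, next 14.9), Ighv1-39 (89.7, next 8.46) and Igkv4-59 (43.8, next 11.6). Other knockout libraries gave Ighe at 0.294 FPKM and Iglc1 at 7.63 FPKM (AngII replicate 3), an IgM share of 58.6% (saline replicate 5) and a kappa share of 13.7% (AngII replicate 1).

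In wild type mice Ighg2c was 716 FPKM in AngII replicate 5, Iglc1 was 50.8 FPKM in saline replicate 1 and 30.3 FPKM in AngII replicate 1, and the kappa share was 91.3% in AngII replicate 3. Saline replicate 4 had Igkv6-15 at 85.0 FPKM and Iglv1 at 0.995 FPKM, and saline replicate 2 had a leading kappa V gene of 12.2%.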

How the results depend on the processing

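The number of immunoglobulin genes called between genotypes under AngII (1) was 0 without trend and robust moderation, in a fit of the compared groups only, with the replicate block, with limma-voom and without the libraries of low Cd79a, and 0 to 1 with single libraries left out. Under saline it was 8 without knockout saline replicates 1 and 3 and 5 without the low-Cd79a libraries, which also gave 4 for AngII in knockout mice. The other alternatives left all 5 counts unchanged, though with no filter the 1 gene called was Igkv4-54 and not Ighg1.

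Signs changed for several values far from the threshold, and the cause was not tested. For AngII in knockout mice Igha was 0.029 after quantile normalization, and without knockout saline replicates 1 and 3 Igkc was 1.68 and Igha 2.84. The interaction without these was 1.08 for Igkc and 2.45 for Igha, the IgM share difference between genotypes under saline 5.80 points and the IgG share difference -5.15. Without the low-Cd79a libraries Igkc was 2.52 and Igha 1.54 under saline, and Ighm 2.64 under AngII. For the genotypes under AngII, Ighm was 0.24 after quantile normalization and 0.026 after TMM-like scaling. With single libraries left out, AngII in knockout mice ranged from -2.43 to 0.15 for Igkc and from -1.35 to 1.17 for Igha, Ighm between genotypes under AngII from -1.06 to 1.06, and the Igha interaction from -1.75 to 0.78. In points, the IgM share under saline ranged from -14.1 to 1.44, and the IgA share from -7.15 to 1.16 for AngII in wild type, from -5.84 to 13.0 in knockout mice and from -14.8 to 2.84 between genotypes under AngII.

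Replicate numbers only name mice: same-numbered libraries correlated from -0.52 to 0.41 over 30 pairs, and 4 of 30 correlated best with their own number. With the replicate block Ighg1 had a limma adjusted p of 0.0821 and the count of members called under AngII was 0. The block changed no other member count. Over all genes, calls between genotypes went from 275 to 70 under AngII and from 2 to 1 under saline. Few V reads in the 5 low libraries limit their shares and V use.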
